A study of Triticum aestivum with 2 samples.

Results

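The 19 wheat genes described here are those that the study lists as root cap markers. They were chosen by the study from the top genes of a root cap cluster in its single-cell data, and were kept because their pattern on sections of these same chips was judged to be that of the cap. They were thus selected on the readout reported here, so every value of the 19 genes on the cap sections is a description and no test was made on it. All 19 were found among the 77502 gene IDs counted on the root cap region chip, and 14 of them among the 96646 IDs counted on the chip of the distal root region.

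The samples were roots of 15-day-old seedlings of Chinese Spring, a cultivar of hexaploid bread wheat, germinated on medium and then grown in soil without any further treatment. Roots were frozen, cut across at 10 μm and placed on Stereo-seq chips, which capture RNA on a grid of barcoded spots so that each molecule (a MID, a molecular identifier) is counted with its position. There was 1 chip, and so 1 library, for the root cap region and 1 for the distal root region. The chips held 28281662 and 77515877 MIDs, of which 61.1% and 77.1% were assigned to exons. The root cap region chip showed 10 sections in an upper and a lower group of 5, and the smallest, round section of each group was taken as a cap section. No source used here says whether the 2 cap sections came from separate roots, so they are not replicates. Limits given with values are exact 95% limits and cover counting error only.

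The root cap is the tissue that covers the tip of a growing root. Its central part senses gravity, and its outer and lateral cells enclose the meristem, secrete mucilage and are shed into the soil as the root advances. In a cross-section near the tip, the lateral root cap therefore forms the outermost layers, outside the epidermis. Bread wheat carries 3 related subgenomes, A, B and D, so that a gene commonly has a copy, its homeolog, on each of the 3 chromosomes of a homeologous group.

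The list holds 4 orthologous groups in the study's tables. The largest has 14 of the 19 genes and is grouped with Arabidopsis AT3G19430, a gene annotated as related to late embryogenesis abundant (LEA) proteins, a class known from maturing seeds and tissues short of water. A second group has 3 genes, 1 of which is paired with Arabidopsis AT5G60530, an LEA protein-like gene. TraesCS7D03G0226600 belongs with AT1G50060, of the family of secreted proteins that includes pathogenesis-related protein 1. TraesCS3D03G0382600 has no named relative here. The sources at hand gave neither sequences nor positions for these genes, so copies are placed only by the chromosome and number in their ID.

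The label of the cap sections was first set against the study's marker lists. Circles around the 2 cap sections held 172315 (upper) and 183941 (lower) MIDs of nuclear genes, together 1.26% of the chip. The upper circle held 821 MIDs of the list, or 4765 counts per 1000000 nuclear MIDs of the same area (CPM, limits 4444 to 5102), and the lower circle 552, or 3001 CPM (2756 to 3262). The 8 other sections, outlined as circles in the same way, held between 4 and 35 MIDs of the list each, or 30.1 to 77.3 CPM. The 2 groups of sections did not overlap in this level. The genes of the list had been kept for their cap pattern on these same chips, so the separation cannot check the label. All sections shared a library and are not replicates, and how many other genes separate them in this way was not tested. The study's lists for epidermis, cortex and xylem were lower in the cap sections than in the 8 other sections summed. So were those for provascular cells, endodermis and dividing cells in G2/M. Log2 ratios of these lists ran from -1.51 (epidermis) to -3.07 (provascular cells). The xylem list had only 2 MIDs in each cap section, at 11.2 CPM, within the 9.88 to 170 CPM of the single other sections. The endodermis list had 2 MIDs in the upper and 0 in the lower cap section (limits of the log2 ratio -5.74 to -0.80). These lists too were kept by the study for their pattern on such sections, so their levels are descriptions as well. The G1/S list differed by -0.06 (limits -0.15 to 0.03), and the phloem list had 1 MID in the cap sections and 1 in the others.

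Within the cap sections the 19 genes marked a thin outer layer. In the upper section, the list stood at 131, 284 and 623 CPM in the 3 inner of 5 rings of equal width, then at 4131 between 0.6 and 0.8 of the radius and at 9938 (limits 9152 to 10774) in the outermost ring. In the lower section the inner 3 rings held 0, 3 and 2 MIDs of the list. The ring from 0.6 to 0.8 stood at 1144 CPM and the outermost at 7684 (7021 to 8394). The layer thus began further inward in the upper section, where 71.9% (68.7 to 74.9) of the list's MIDs lay in the outermost ring, against 89.3% (86.4 to 91.8) in the lower section. The circles follow the sections only roughly. The highest level of the lower section, 8800 CPM, was in the ring just outside its circle, from 1 to 1.2 radii, where the upper section stood at 8085.

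All nuclear RNA together did not show this outer peak. Nuclear MIDs per spot fell only from 0.774 in the innermost to 0.670 in the outermost ring of the upper section and from 0.749 to 0.590 in the lower one, then to 0.389 and 0.385 just outside the circles. Of all nuclear MIDs in the circles, 34.7% lay in the outermost ring, against 78.9% (76.6 to 81.0) of the list. The epidermis list, the nearest in position, had 53.4% (47.2 to 59.5) of its 268 MIDs there, the cortex list 36.5% (28.7 to 44.8) of 148, and the G1/S list 26.2% (23.7 to 28.8) of 1188. The inner part of both sections, below 0.4 of the radius, held 10 MIDs of the list among 67113, or 149 CPM (71.5 to 274).

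**Figure D1:**
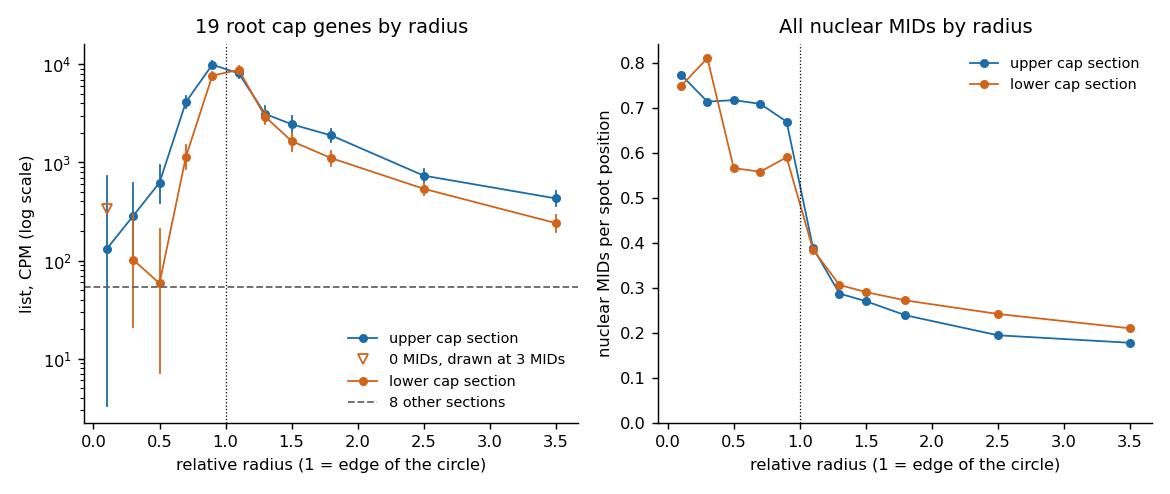
Left, CPM of the 19 root cap genes (log scale) against relative radius in the upper and lower cap section, with 95% Poisson limits and the level of the 8 other sections as a dashed line; right, all nuclear MIDs per spot position against the same radius. The list peaked at 9938 CPM in the outermost ring of the upper section and at 8800 just outside the lower circle, while all nuclear MIDs per spot were lower there than near the centre. In MIDs per spot, the list was higher in the outermost ring of the lower circle than just outside it.

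The layer closed around both sections. When the band from 0.6 to 1.2 radii was cut into 8 sectors of 45 degrees, the list stood between 6415 and 10361 CPM in the upper section and between 3836 and 8999 in the lower section. Every sector held MIDs of at least 14 of the 19 genes. The same 2 adjoining sectors were the highest in each section, at 10361 and 9409 CPM in the upper and 7721 and 8999 in the lower one.

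All genes with enough MIDs shared the outer position. Of the 19 genes, 16 had at least 20 MIDs in the cap sections, and the mean relative radius of each was at least 0.1 above that of all nuclear MIDs, with shifts from 0.19 to 0.25 and a median of 0.21. Among all 2299 genes with as many MIDs there, 13.7% had such a shift and the median was -0.01. The lowest shift was that of TraesCS2B03G1153200 and the highest that of TraesCS3B03G1464600, with 71.9% (64.4 to 78.5) and 88.7% (79.0 to 95.01) of their MIDs in the outermost ring. The 3 genes below 20 MIDs, TraesCS7D03G0226600, TraesCS1B03G0058000 and TraesCS3A03G0756500, had 13 of 13, 9 of 9 and 5 of 6 MIDs in that ring.

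Against the rest of the chip, all 19 genes were past 8-fold in the cap sections, a contrast for which they had been selected. With circles of a 10% smaller radius 13 of them were, and in the lower section alone 16. The same held for 4.3% of the 40301 nuclear genes with at least 20 MIDs on the chip, and 360 of those 1733 genes had no more than 3 MIDs in the circles. The ratio of the 19 genes ran from 12.0 (TraesCS3D03G0382600) to 22.4 (TraesCS1A03G0053300). Their median log2 ratio was 3.94, against 0.19 over all genes tested. The rest of the chip was a mixed reference, since it held the outer edge of the layer itself and RNA lying off the tissue.

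The AT3G19430 group carried 89.0% of the list's MIDs on the chip, and its genes lay on chromosome groups 1, 2 and 3, with neighbouring listed IDs on 2D, 3B and 3D. On chromosome group 2, TraesCS2D03G0971800 was the gene with the most MIDs of the list, with 1186 on the chip, 122 in the upper and 72 in the lower cap section. These are 708 and 391 CPM, against 6.89 CPM in the 8 other sections. Next to it in ID order, TraesCS2D03G0971700 had 829 on the chip, with 92 in the upper and 47 in the lower section. The third D copy, TraesCS2D03G0971100, had 374 on the chip, but 47 in the upper and only 9 in the lower section. Within the circles the upper section was thus the higher for all 3 D copies, most of all for the third. Within 1.2 radii TraesCS2D03G0971800 had 160 and 148 MIDs, a ratio of only 1.18 (0.94 to 1.49).

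The B copy on group 2, TraesCS2B03G1153200, had 99 MIDs in the upper and 68 in the lower section. Of the 68, 17 came from 1 spot at 0.945 of the radius, the highest count of any nuclear gene at a spot in the cap sections. The next highest count of a root cap gene at a spot was 6. Without that spot the lower section held 51, and the ratio of the upper to the lower section was 2.07 (1.46 to 2.96) in place of 1.55 (1.13 to 2.15). Within 1.2 radii, with the spot kept, the gene had 125 and 112 MIDs, a ratio of only 1.22 (0.94 to 1.59). The listed A copy, TraesCS2A03G1032300, had 35 MIDs in the upper and 15 in the lower section.

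On chromosome group 3, counts in the 2 sections were closer to each other. TraesCS3D03G1163500 had 922 MIDs on the chip, 105 in the upper and 84 in the lower section, and was the highest of the list in the lower section at 457 CPM. Its neighbour in ID order, TraesCS3D03G1163600, had 48 and 44. On 3B, TraesCS3B03G1464500 had 62 and 51 and TraesCS3B03G1464600 had 38 and 33, and on 3A, TraesCS3A03G1224300 had 27 and 26. Each of these 5 genes had a little more in the upper section, with limits of the ratio that include 1. TraesCS3B03G1268400, far from the others in ID number, had 21 and 18.

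On chromosome group 1, TraesCS1A03G0053300 had 31 MIDs in the upper and 13 in the lower section, TraesCS1D03G0043400 had 15 and 14, and TraesCS1B03G0058000 had 6 and 3. The A copy had the highest ratio to the rest of the chip of the 19 genes, 22.4 (15.6 to 31.5), and only 1 MID in the 8 other sections. Its limits overlap those of most other members, including the 20.5 (17.2 to 24.4) of TraesCS2B03G1153200 and the 20.2 (17.1 to 23.7) of TraesCS3D03G1163500.

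The 3 genes of the AT5G60530 group were lower and even between the sections. TraesCS3B03G0864600 had 18 MIDs in the upper and 22 in the lower section, TraesCS3D03G0697200 had 18 and 15, and TraesCS3A03G0756500 had 4 and 2. Summed, the group gave 40 and 39, a ratio of 1.09 (0.69 to 1.75). TraesCS3D03G0382600, the gene without a named relative, had 21 and 15.

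TraesCS7D03G0226600, the gene grouped with the pathogenesis-related protein 1 family, was seen mostly in the upper section. It had 67 MIDs on the chip, 12 in the upper and 1 in the lower circle, and all 13 lay in the outermost ring. Within 1.2 radii, which takes in the ring just outside the circles, the counts were 15 and 4. These 13 MIDs came from only 6 spots, with up to 4 at a spot, so that they are fewer independent events than their number. Over the whole list, 46.2% of the MIDs in the cap sections lay at spots with more than 1 MID of the same gene, against 25.8% over all nuclear genes.

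**Figure D2:**
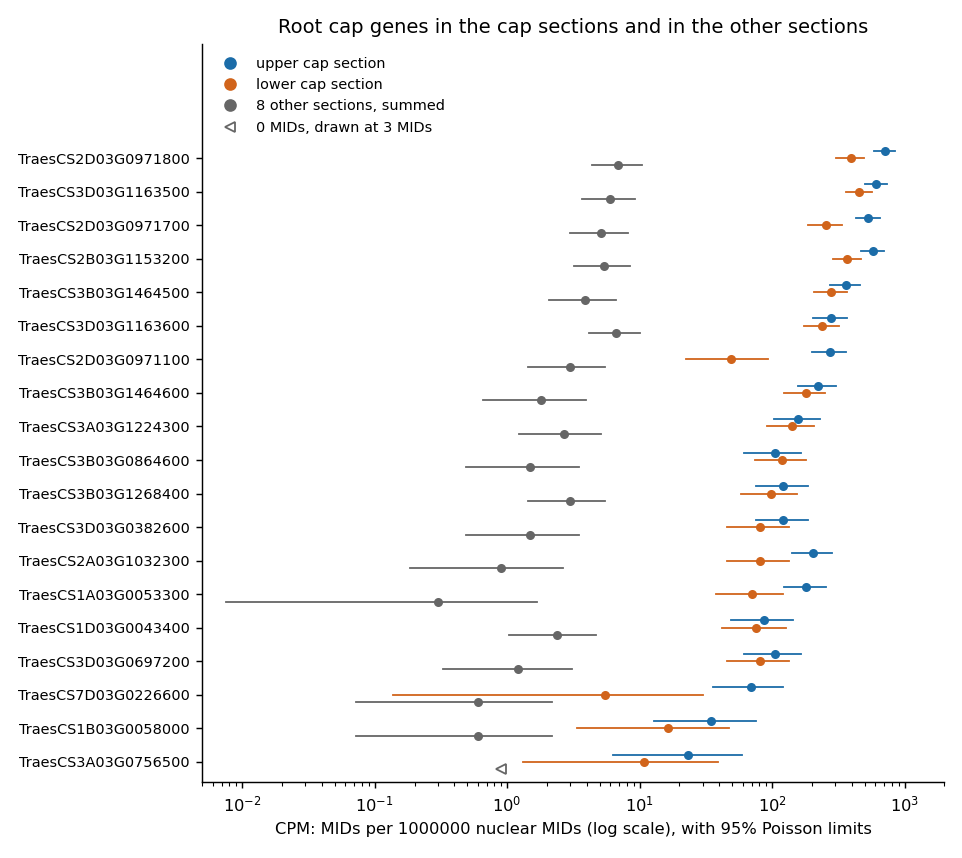
CPM (log scale) of each of the 19 root cap genes, ordered by MIDs on the chip, in the upper cap section, the lower cap section and the 8 other sections summed, with 95% Poisson limits; a triangle at 3 MIDs stands for a count of 0. In every row both cap sections lie above the other sections, from 708 against 6.89 CPM for TraesCS2D03G0971800 in the upper section down to the 4 and 2 MIDs of TraesCS3A03G0756500.

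The list as a whole was 1.59-fold (1.42 to 1.77) higher in the upper than in the lower cap section. This difference depended on the circles. Within 1.2 radii, which takes in the ring just outside the circles, the sections held 1162 and 1002 MIDs of the list. The ratio was then 1.27 (1.17 to 1.38). Of the 16 genes with at least 20 MIDs in the circles, 4 were past 2-fold in the upper section, against 6.7% of all genes with as many MIDs. They were TraesCS2D03G0971700, TraesCS2D03G0971100, TraesCS2A03G1032300 and TraesCS1A03G0053300, all of the AT3G19430 group.

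These 4 genes did not respond alike to the wider circle. TraesCS2D03G0971100 went from a ratio of 5.57 (2.70 to 12.9) to 1.95 (1.29 to 3.01), with 66 and 37 MIDs within 1.2 radii. TraesCS2D03G0971700 went from 2.09 to 1.55 (1.18 to 2.03). TraesCS1A03G0053300 stayed at 2.85 (1.67 to 5.04), with 52 and 20 MIDs, and TraesCS2A03G1032300 at 2.28 (1.38 to 3.88), with 50 and 24. For TraesCS1A03G0053300 the lower limit lay above the upper limit of the list, 1.38, but the gene is itself part of the list. Its 44 MIDs in the circles came from 29 spots, with up to 6 at a spot in the upper section. Limits that take MIDs as independent are then too narrow, so no difference from the list is read from them. TraesCS7D03G0226600 had 15 and 4 MIDs within 1.2 radii, a ratio of 4.11 (1.31 to 17.01). No source used here gives the distance of each cap section from the root tip.

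**Figure D3:**
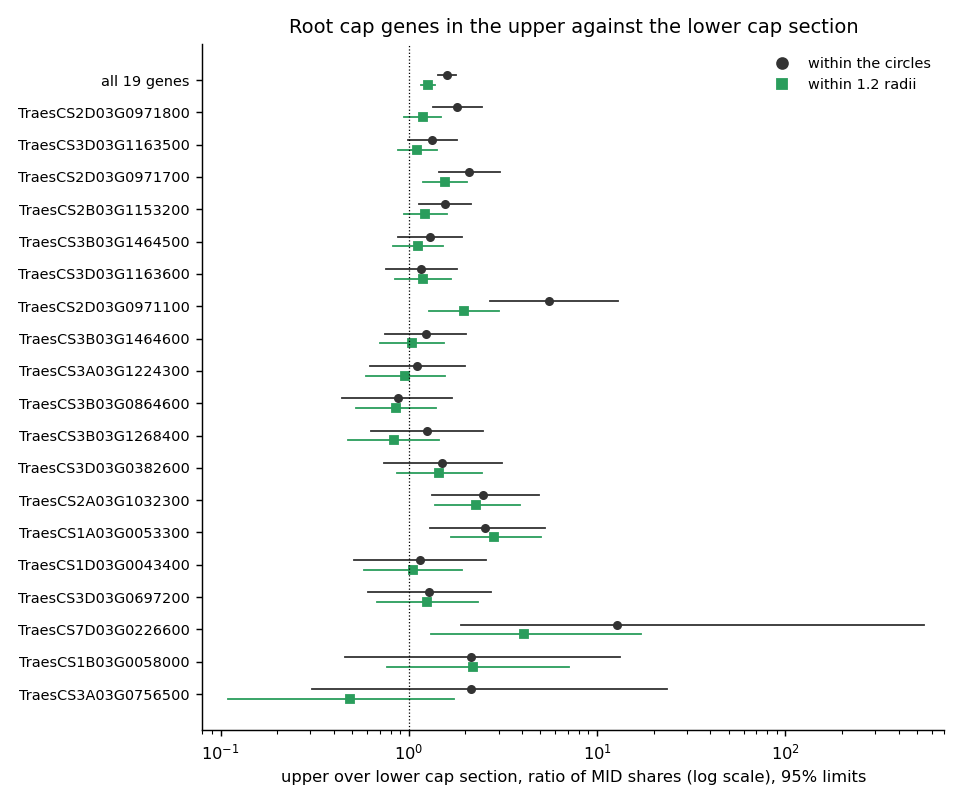
Ratio of the share of nuclear MIDs in the upper to that in the lower cap section (log scale) for all 19 genes together and each gene, within the circles and within 1.2 radii, with 95% limits. The list moved from 1.59 to 1.27 with the wider circle, and TraesCS2D03G0971100 from 5.57 to 1.95, while TraesCS1A03G0053300 stood at 2.55 and 2.85.

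Copies on the 3 subgenomes contributed unequally. In the cap sections 56.9% (54.2 to 59.5) of the list's MIDs came from D copies, 32.0% (29.5 to 34.5) from B copies and 11.1% (9.5 to 12.9) from A copies. All nuclear genes there gave 30.7% to D, 30.1% to B and 36.1% to A. The list holds 9 genes on D, 6 on B and 4 on A, so that its shares follow in part from which genes are on it. Near-identical copies can share or lose reads in mapping, which was not tested.

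Where a group has 1 listed gene on each subgenome, the copy with the most MIDs in the cap sections differed between groups. In both groups its limits overlapped those of the next copy, so no leading copy is settled. On group 1, the A copy TraesCS1A03G0053300 had 44 of 82 MIDs in the cap sections (53.7%, 42.3 to 64.7), the D copy 29 (35.4%, 25.1 to 46.7) and the B copy 9 (10.98%, 5.1 to 19.8). Over the rest of the chip the A copy had 40.7% (35.7 to 45.9) and the D copy 44.4% (39.4 to 49.6), so that the order of these 2 copies is not settled. In the AT5G60530 group, the B copy TraesCS3B03G0864600 had 40 of 79 MIDs (50.6%, 39.1 to 62.1), the D copy 33 (41.8%, 30.8 to 53.4) and the A copy 6 (7.6%, 2.8 to 15.8). The limits of the B and D copies overlap, and those of the A copy lie below both. This A share rests on the choice of genes. TraesCS3A03G1226700, an unlisted A gene of the same orthologous group, also had 6 MIDs in the cap sections and is not counted in it. In both groups the listed copy with the fewest MIDs was the same in either section, TraesCS1B03G0058000 and TraesCS3A03G0756500.

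Within the AT3G19430 group, on groups 2 and 3, the listed A copies were the smallest part. On group 2, the 3 D genes had 64.2% (60.2 to 68.0) of the MIDs of the 5 listed genes, the B gene 27.6% (24.0 to 31.3) and the A gene 8.3% (6.2 to 10.7). On group 3, the 2 D genes had 50.4% (46.2 to 54.7) of 557 MIDs, the 3 B genes 40.0% (35.9 to 44.2) and the A gene 9.5% (7.2 to 12.3). These A shares rest on the choice of genes. With the unlisted genes of the same orthologous group added, the A share was 28.8% (25.5 to 32.2) on group 3 and 12.6% (10.1 to 15.4) on group 2.

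**Figure D4:**
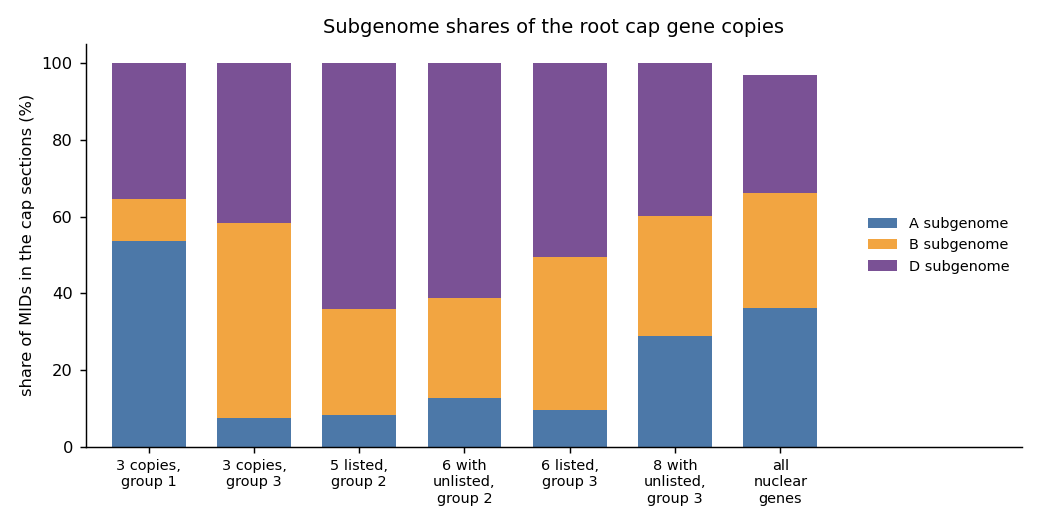
Share (%) of the MIDs in the cap sections that came from A, B and D subgenome copies. Shown are the 2 sets with 1 listed copy each and the listed genes of the AT3G19430 group on chromosome groups 2 and 3. Further bars give the latter with unlisted genes added, and all nuclear genes, some of which have no subgenome. The A share on group 3 was 9.5% over the 6 listed genes and 28.8% over the 8 genes with the unlisted ones.

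The study's ranked marker table puts 5 further wheat genes in these orthologous groups that are not on the list of 19. TraesCS3A03G1224100, 2 places from TraesCS3A03G1224300 in ID order, had 678 MIDs on the chip, 85 in the upper and 67 in the lower cap section and 0 on the distal root region chip. Its ratio to the rest of the chip was 22.7 (18.8 to 27.2), above the point value of each of the 19 listed genes, and by MIDs on the chip only 4 of the 19 exceeded it. TraesCS2A03G1032100 had 134 on the chip, with 18 in the upper and 12 in the lower section, and a ratio of 22.6 (14.5 to 34.2).

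The other 3 unlisted genes had fewer MIDs. TraesCS3A03G0390700, the only other gene of the group of TraesCS3D03G0382600, had 41 on the chip, with 7 and 5 in the sections. TraesCS3A03G1226700, of the AT5G60530 group, had 44 on the chip, with 4 and 2. TraesCS3D03G1163700, next to TraesCS3D03G1163600 in ID order, had 84 MIDs on the chip but 3 and 1 in the sections. Its ratio of 3.92 (1.04 to 10.4) was below the 20.2 of TraesCS3D03G1163500 and the 14.6 of TraesCS3D03G1163600. It rests on 4 MIDs, and limits that take MIDs as independent are too narrow, so no difference is read from them. Summed, the 5 genes were 20.6-fold (17.6 to 24.0) higher in the cap sections than in the rest of the chip. Of the other root cap markers in the study's ranked table, only those given as conserved in 3 or more species, outside these groups, were examined. They had few MIDs in the cap sections. TraesCS2D03G0347500 had 3 there (8.42 CPM) and 1421 on the distal chip (18.3 CPM). TraesCS5A03G0684700 had 6 (16.8 CPM) and 1478 (19.1 CPM). TraesCS7B03G0805100 had 1 (2.81 CPM) and 213 (2.75 CPM). TraesCS6D03G0205200 had 1 (2.81 CPM) and 72 (0.929 CPM), and TraesCS7A03G0969300 had 0 and 53 (0.684 CPM). On the whole root cap region chip TraesCS6D03G0205200 had only 18 MIDs and TraesCS7A03G0969300 only 3. Limits of the log2 ratio to the rest of the chip were -0.64 to 1.96 for TraesCS5A03G0684700, which stays below 8-fold. For TraesCS6D03G0205200 they were -3.18 to 4.88, so its ratio is not settled.

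Of 48 other IDs within 10 places of a member and with at least 20 MIDs on the chip, 7 (14.6%) were past 8-fold in the cap sections, against 4.3% of all genes with as many MIDs. The 13 without a MID there are 27.1% of the 48, close to the 26.6% over all genes tested. The 7 past 8-fold include the unlisted TraesCS3A03G1224100 and TraesCS2A03G1032100. Of the rest, TraesCS2A03G1031900 had 25 MIDs on the chip, 5 in the upper and 2 in the lower section, and TraesCS3D03G1163100 had 33, with 6 and 3. Both were at 0 on the distal chip, as were only the 2 unlisted relatives among the 48, and both lie 4 places from a listed gene, with no name in the tables used here. The remaining 3, TraesCS2D03G0970300, TraesCS2B03G1153100LC and TraesCS3A03G0756600, had 7, 3 and 3 MIDs in the cap sections and 1247, 75 and 197 on the distal chip. These are 19.6, 8.42 and 8.42 CPM in the cap sections against 16.1, 0.968 and 2.54 CPM on the distal chip.

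On the distal root region chip the list was nearly absent. It held 47 MIDs of the list on a chip with 77512045 nuclear MIDs, 0.606 CPM (0.446 to 0.806), against 7903 MIDs, or 279 CPM, on the root cap region chip, a ratio of 461 (346 to 628). No member had more than 6 MIDs there. All 19 genes were past 8-fold between the chips, as were 1.62% of the genes with at least 20 MIDs on the root cap region chip. The chips are single libraries of different depth, and region and library cannot be told apart.

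Members differed in what they left on the distal chip. TraesCS2B03G1153200 and TraesCS3B03G0864600 had 6 MIDs each, TraesCS2D03G0971700, TraesCS3D03G1163500 and TraesCS7D03G0226600 had 5, and TraesCS2D03G0971800 and TraesCS3D03G0382600 had 4. Relative to its level on the root cap region chip, TraesCS7D03G0226600 was the least separated of the genes seen on both, with 67 MIDs against 5, a ratio of 36.7, while TraesCS2D03G0971800 with 1186 against 4 had one of 813. The 5 genes with 0 MIDs were TraesCS2D03G0971100, TraesCS3B03G1464600, TraesCS3B03G1268400, TraesCS2A03G1032300 and TraesCS3A03G0756500, which allows up to 0.0387 CPM each when 0 is taken as 3 MIDs. Against that floor the root cap region chip was at least 342-fold higher for TraesCS2D03G0971100. For TraesCS3A03G0756500, with 44 MIDs, it was at least 40.2-fold.

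**Figure D5:**
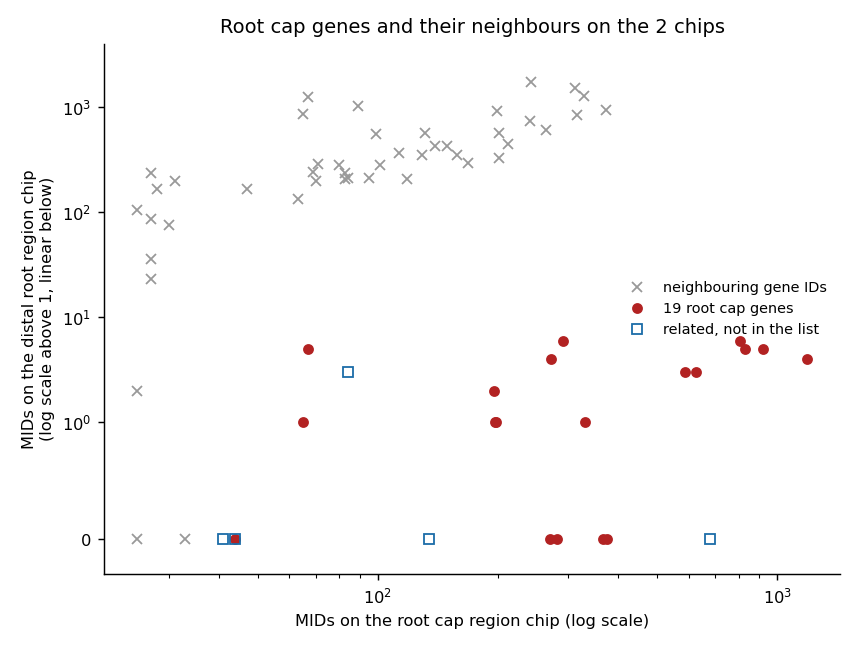
MIDs on the distal root region chip (log scale above 1, linear below) against MIDs on the root cap region chip (log scale) for the 19 root cap genes, the 5 related genes outside the list and the gene IDs within 10 places of a member that have at least 20 MIDs. The listed genes lie at 0 to 6 MIDs on the distal chip, while most neighbours lie between 23 and 1749.

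On both chips every MID of all 19 genes was assigned to an exon. The same held on the root cap region chip for 47.1% of the genes with at least 20 MIDs there, so that this is common among genes of these counts. It also held for the 5 unlisted relatives.

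Of the list's MIDs, 17.4% lay inside the 2 circles, against 1.26% of all nuclear MIDs. A further 19.2% lay between 1 and 2 radii from a cap centre, at 3263 CPM, and 7.31% between 2 and 4 radii, at 635 CPM. The 8 other sections held 2.25%, at 53.5 CPM. Everything else on the chip, outside the outlined sections, held 53.8% of the list's MIDs and 82.1% of all nuclear MIDs. The list stood there at 183 CPM (178 to 189), more than 3 times the level inside the other sections. Outside the sections the level fell from 259 CPM between 4 and 8 radii to 174 between 8 and 16 and 174 beyond. The share within 2 radii ran from 27.4% (TraesCS3B03G1268400) to 43.9% (TraesCS1A03G0053300). The origin of the MIDs off the sections was not tested.

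The 4 transcription factors that the study predicts as root cap regulators in all its species had few MIDs. Their 12 wheat genes had 20 MIDs in the cap sections together, fewer than 16 of the 19 members had singly. The 2 genes of ANAC081, a NAC factor, had 11, a ratio to the rest of the chip of 6.95 (3.38 to 12.9). Of these 11, 8 came from TraesCS3A03G0950500, which the study's tables also give as a xylem regulator under the name ANAC002. The 3 genes of WRKY17 had 8, with a ratio of 1.72 (0.74 to 3.42), the 5 genes of WRKY40 had 1 and the 2 genes of WRKY26 had 0, which allows up to 8.42 CPM by the floor of 3 MIDs. The WRKY17 genes lie in the same stretches of chromosome group 2 as genes of the AT3G19430 group, with TraesCS2D03G0970800 at 3, TraesCS2B03G1152700 at 5 and TraesCS2A03G1031600 at 7 places from the nearest listed gene. They had 366, 353 and 570 MIDs on the distal chip, or 4.72, 4.55 and 7.35 CPM. In the cap sections they had 3, 2 and 3 MIDs, or 8.42, 5.61 and 8.42 CPM.

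The list was not the set with the highest ratio in both cap sections. Ranked by the lower of the 2 section ratios over the 879 genes with at least 20 MIDs in each section, the 8 members that entered stood between rank 26 (TraesCS3D03G1163500) and rank 98 (TraesCS2D03G0971700). The first was TraesCS4D03G0681600, with 34 MIDs in the upper and 37 in the lower section of 163 on the chip, 74.6% of them in the outermost ring and 6 MIDs on the distal chip. It was followed by TraesCS5D03G0952900LC with 21 and 22, TraesCS3D03G0060300 with 89 and 85, TraesCS4D03G0757400 with 49 and 53 and TraesCS4B03G0140200 with 49 and 51. In the outermost ring these 4 had 48.8%, 55.7%, 34.3% and 81.0% of their MIDs, and on the distal chip 36, 2268, 28 and 534. Of these 5 genes only TraesCS4D03G0681600 thus had a distal count as low as those of the 19. Outermost shares of the listed genes themselves went down to 63.6% (TraesCS1A03G0053300).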

How the data were processed

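Stereo-seq chips of the root cap region and the distal root region of Chinese Spring roots were analysed, 1 library each. The values deposited by the authors, made with the STOmics Analysis Workflow, are raw counts of MIDs and of exonic MIDs for each gene at each spot, with no normalization and with spots off the tissue kept. Genome build and aligner settings for these chips were not given in the sources used here.

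All 19 genes and the other lists come from the study's supplementary tables, and they were chosen with earlier results of these data known. Named were the 19 genes, 5 genes of their orthologous groups outside the list, IDs within 10 places of a member with at least 20 MIDs, the wheat genes of 4 predicted regulators and the 5 genes with the highest lower-of-2-sections ratio. Also named were other root cap markers that the study ranks as conserved in 3 or more species. The related genes were read from a ranked table that may not be held in full. The cap sections were circles, the upper being the smaller, and 8 further sections were outlined by hand as circles on a map of all MIDs. Chloroplast and mitochondrial rows (0.00193% and 0.00494% of MIDs) were left out. A level is in counts per 1000000 nuclear MIDs of the same area (CPM). Relative radius is distance from the centre over the circle's radius. With 1 library per region no test was made. Limits are exact 95% Poisson or Clopper-Pearson limits, and those of a ratio are conditional on the sum of its 2 counts. A call is a ratio past 8-fold at 20 or more MIDs on the chip, and a count of 0 was set to 3 MIDs. Alternatives were other radii, exonic MIDs, each gene once per spot, single sections, other references, other minimums and folds, density over the capture area (blocks of 100 by 100 spots with at least 10 MIDs) and another centre. The ratio of the cap sections to the rest and its limits were tested on simulated independent counts, which lack the repeats of MIDs at a spot. Rings, radial shift, sectors, copy shares and ranks were not tested in this way. Python 3.11.15 with numpy 2.4.6 and scipy 1.17.1 was used.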

Additional observations from a re-analysis of the deposited data

How the results depend on the processing

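The list's log2 ratios and its radial shift kept their direction under all alternatives run, and the size of the cap values turned on where the circles end. The list stood at 3854 CPM in the cap sections, at 2342 with a radius 10% smaller, at 4621 with one 10% larger and, chosen after seeing the data, at 4814 with one 20% larger. It stood at 5062 with exonic MIDs only, 3268 with each gene counted once per spot, 4765 in the upper section alone and 3001 in the lower alone. Its log2 ratio to the rest of the chip was 4.04, and in the same order 3.18, 4.42, 4.54 and 3.72, with 4.35 in the upper and 3.68 in the lower section. With the rest of the chip taken beyond 2 radii it was 4.40, as density per spot 7.22 and, chosen after seeing the data, against the 8 other sections 6.17. The related genes outside the list went from 4.36 to 3.37 with the smaller and 4.66 with the larger radius. They stood at 4.04 with exonic MIDs, 4.61 in the upper and 4.09 in the lower section, 4.66 beyond 2 radii and 7.54 as density.

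The log2 ratio between the cap sections was 0.67, then 1.56 with the radius 10% smaller, 0.38 with 10% larger and 0.35 with 20% larger. The shift in mean relative radius was 0.22, then 0.20 with the larger radius, 0.19 in the upper and 0.26 in the lower section, and the share above 0.6 of the radius was 97.5%, with 96.5% and 99.1% in the single sections. The B share of the listed group 2 copies, 27.6%, was 23.3% once per spot and 32.2% in the lower section, without the spot of 17 MIDs 25.5%, and the D share was 69.5% once per spot. Of the 19 genes, 13 were past 8-fold with the smaller radius and 16 in the lower section alone. As density per spot, 57.3% of all genes were past it. In the other alternatives all members tested were past it, 19 or, at a minimum of 50 MIDs, 18. TraesCS3A03G0756500, with 44 MIDs, was not tested at that minimum. Of the 118 other values computed, 84 stayed within the limits of the reported value. Within 1.2 radii, 3 single genes turned to the lower section, TraesCS3A03G1224300 (1.11 to 0.96), TraesCS3B03G1268400 (1.25 to 0.83) and TraesCS3A03G0756500 (2.13 to 0.49), with limits that include 1. On group 1 the lower section had 13 MIDs of the A and 14 of the D copy. No paired analysis was possible because each region has 1 library. With 1 library per region, spread between plants is unknown.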
